A study of Mus musculus with 12 samples.

Results

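Of the 10 genes described here, 9 encode lysosomal proteases and the other encodes an inhibitor of such enzymes. They are Ctsa, Ctsb, Ctsc, Ctsd, Ctsh, Ctsl, Ctss, Ctsz (cathepsins A, B, C, D, H, L, S and Z), Lgmn (legumain) and Cst3 (cystatin C). The genes were chosen by name, as lysosomal cathepsins with legumain and cystatin C, with earlier results of these data known. Other cathepsins, Ctsk among them, are described later. All 10 were among the 21965 genes of the count table, and all 10 were among the 15046 genes that passed the filter on low counts. The lowest count of any of them in any library was 470, for Ctss.

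The data were RNA-seq counts from mouse gingiva, made to compare the response to a ligature, a silk thread tied around a maxillary molar that provokes inflammation of the gum, between wildtype mice and mice without the phagocyte oxidase Nox2. The 12 libraries formed 4 groups of 3. WT naive and WT ligated came from C57BL/6 (wildtype) mice, and CybbKO naive and CybbKO ligated came from Cybb-/- mice. Ligated mice were killed 8 days after the thread was placed and all mice were under 12 weeks old. The Cybb-/- genotype affects every cell of the mouse, and no stated step separated cell types of the gingiva. Library totals were 27958819 to 42613423 counts.

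Lysosomal cathepsins are made as inactive precursors that are carried to endosomes and lysosomes, where they are cleaved into active enzymes that digest proteins taken up or turned over by the cell. Cathepsins B, C, H, L, S and Z are cysteine proteases of the papain family, cathepsin D is an aspartic protease, cathepsin A is a serine carboxypeptidase, and legumain is a cysteine protease of a separate family that cuts after asparagine. Cystatin C is a secreted inhibitor of papain-like cysteine proteases and, through a separate site, of legumain. In inflamed gum these enzymes are known mainly from macrophages, dendritic cells and osteoclasts, while keratinocytes and fibroblasts also express several of them.

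Some facts of the whole series bear on what follows. Cybb, which encodes the gp91phox subunit of Nox2, measured 4.19 to 5.6 CPM (counts per library size, with TMM scaling factors) in WT naive, 8.41 to 15.2 in WT ligated, 41.6 to 56.3 in the naive libraries labelled CybbKO and 51.1 to 63.7 in the ligated ones. Its count was thus higher in the libraries labelled CybbKO, the opposite direction to a loss of the transcript, and whole-gene counts cannot locate a disrupted exon. The genotype names below are therefore those of the labels. Keratinocyte markers summed to 58780 CPM or more in every library. One library, WT naive replicate 3, held 29179 CPM of salivary and mucous gland markers against 56.3 to 5050 in the other 11. Another, CybbKO ligated replicate 2, held 28.1 CPM of adipocyte markers against at most 4.48 elsewhere. Results were also computed without both.

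The start regions of Ctss, Lgmn and Ctsd are shown because Ctss and Lgmn rose the most with the ligature while Ctsd, the most abundant of the proteases, did not pass the test in any comparison. RefSeq (GRCm38.p6) held start regions for 8 of the 10 genes and none for Ctsb or Ctsh. Each sequence runs from 250 bases before a transcription start to 30 bases after it, on the strand of the gene. Capitals mark matches, on either strand, to 3 motifs chosen after the sequences were seen. These were CACGTG (the core of the E-box bound by TFEB-family factors of lysosomal genes, identical on both strands), the core of an interferon-stimulated response element (GAAA, then 2 bases of any kind, then GAAA) and AGGAAGT (a core bound by ETS factors such as PU.1), and no match overlapped another.

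Ctss, chr3:95526536-95526815, plus strand: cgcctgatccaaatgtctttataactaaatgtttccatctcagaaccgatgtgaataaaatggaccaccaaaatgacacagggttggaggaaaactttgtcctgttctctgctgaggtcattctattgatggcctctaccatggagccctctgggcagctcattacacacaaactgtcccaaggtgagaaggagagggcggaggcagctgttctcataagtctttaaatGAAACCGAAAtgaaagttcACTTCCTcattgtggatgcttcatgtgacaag
Lgmn, first of 2 starts, chr12:102439699-102439978, minus strand: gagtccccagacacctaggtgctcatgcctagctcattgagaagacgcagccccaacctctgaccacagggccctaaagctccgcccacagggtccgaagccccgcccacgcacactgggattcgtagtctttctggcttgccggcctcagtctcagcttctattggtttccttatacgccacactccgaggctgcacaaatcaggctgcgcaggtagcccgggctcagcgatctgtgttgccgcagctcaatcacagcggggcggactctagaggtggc
Ctsd, chr7:142387798-142388077, minus strand: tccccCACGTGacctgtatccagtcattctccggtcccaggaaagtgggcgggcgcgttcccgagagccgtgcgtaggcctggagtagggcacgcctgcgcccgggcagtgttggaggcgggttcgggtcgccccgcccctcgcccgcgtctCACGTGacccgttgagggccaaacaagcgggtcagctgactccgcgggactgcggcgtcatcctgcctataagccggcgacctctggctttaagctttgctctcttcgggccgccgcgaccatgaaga

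The Ctss region held the interferon response core once, at positions -21 to -12 from the start, and AGGAAGT once on the opposite strand, beginning at position -2. The Ctsd region held CACGTG at 2 places. The Lgmn region shown held none of the 3, and the region of its other start held CACGTG once. Of the remaining genes, Ctsa (at the second of its 2 starts, 2 matches) and Ctsl (1 match) held CACGTG, Ctsc held AGGAAGT, and Cst3 and Ctsz held none. Among 32851 RefSeq regions of this length, 6.79% held CACGTG, 3.28% held the interferon response core and 8.65% held AGGAAGT. These matches describe letters in the windows, and no binding was measured.

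The levels of the 10 genes differed widely. To compare genes with each other, CPM was divided by the kilobases of exon of each gene. On this scale Ctsd averaged 270.5 and Cst3 averaged 256 over the 12 libraries, followed by Ctsb at 91.6 and Ctsl at 46.1. The other 6 genes averaged 15.6 (Ctsh) to 29 (Ctss). Libraries of Ctsd and Cst3 overlapped in all 4 groups, so the order of these 2 genes was not resolved, while both lay above every Ctsb library in each group and Ctsb lay above every Ctsl library. Below Ctsl the neighbours mostly overlapped. Ctsl stood clear of the next gene in both naive groups but overlapped Ctss in both ligated groups. The order depended on the length used. Per kilobase of the principal transcript, an alternative added after seeing the data, Cst3 averaged 377 and Ctsd 299, and Ctsl at 152 stood above Ctsb at 117. The other 6 genes then averaged 22.3 (Lgmn) to 60.6 (Ctsc), with Ctsh, the lowest per kilobase of exon, at 43.5.

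Variation over the 12 libraries also differed. The SD of log2 CPM was 0.87 for Ctss, above that of 91% of the tested genes, then 0.55 for Lgmn, 0.48 for Ctsz and 0.40 for Ctsc. It was 0.16 for Ctsl, 0.19 for Ctsd, 0.21 for Ctsa, 0.23 for Cst3, 0.24 for Ctsb and 0.26 for Ctsh, all below the median of 0.29 over the tested genes. The spread was widest for Ctss, a less abundant member, and narrow for Ctsd and Cst3, the 2 most abundant.

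**Figure D1:**
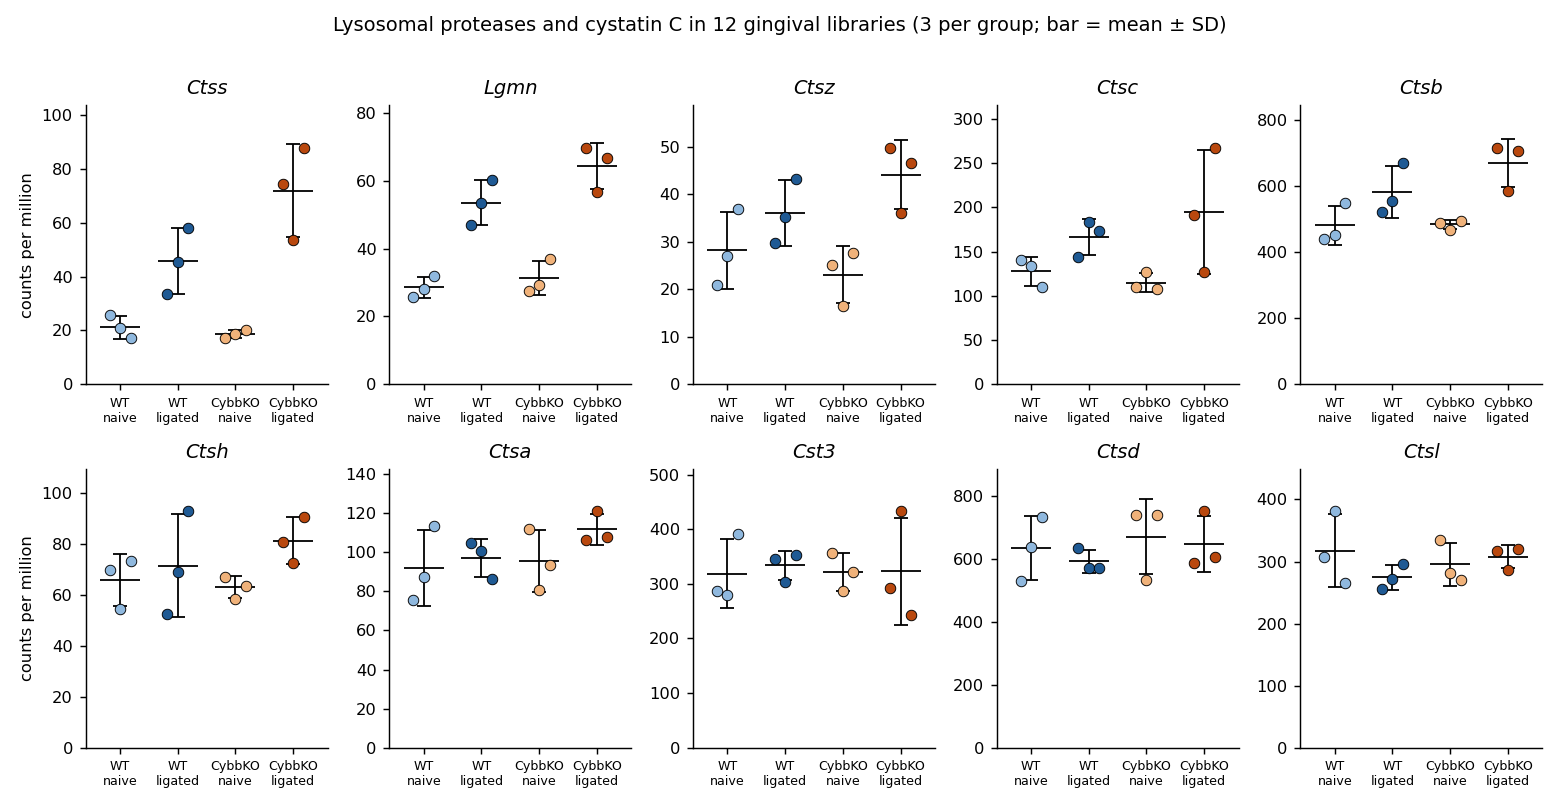
Level of each gene (CPM, y axis from 0, own scale in each panel) in the 12 libraries, 3 points per group, with the mean and SD of the group as black bars. Ctss and Lgmn in ligated libraries lie above all naive libraries, while the 4 groups of Ctsd, Ctsl and Cst3 overlap.

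The first comparison asked what the ligature changed in WT gingiva. Ctss and Lgmn rose, by 2.16-fold and 1.88-fold, and the other 8 genes did not pass the test. The 2 calls among 10 genes, both higher, compare with 3.2% of all tested genes called (348 genes or 2.31% higher and 133 or 0.884% lower, which became 477 and 68 when libraries were scaled by their totals alone). DESeq2, which called 9.15% of genes, called the same 2 members. These were also the members with an unadjusted p under 0.05 by edgeR, which 19.9% of genes had, so none was called lower. The median log2 fold change of the 10 genes was 0.20, against -0.03 for all tested genes.

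Ctss encodes cathepsin S, an elastin-cleaving protease that stays active at neutral pH and trims the invariant chain in antigen-presenting cells. It measured 25.7, 20.7 and 17.1 CPM in the WT naive libraries and 33.5, 45.6 and 58.2 CPM in the WT ligated libraries. The lowest ligated library lay above the highest naive one. In bulk tissue, more cells of a type and more RNA per cell cannot be told apart. The log2 fold change was 1.11 (SE 0.23, 95% interval 0.61 to 1.61, edgeR adjusted p = 0.0282).

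Lgmn encodes legumain, which activates other lysosomal proteases by cleaving their precursors. It measured 25.6, 28.2 and 31.8 CPM in WT naive and 46.9, 53.6 and 60.3 CPM in WT ligated. Again the groups did not overlap, and the spread within each was small, with coefficients of variation of 10.9% and 12.5%. The log2 fold change was 0.91 (SE 0.15, 95% interval 0.58 to 1.24, edgeR adjusted p = 0.0145).

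Ctsc was the only other gene whose WT groups did not overlap, with 140.2, 133 and 109.5 CPM in naive and 144, 183 and 173 CPM in ligated libraries. Among all tested genes, 13.3% had WT groups that did not overlap and were higher after the ligature. The log2 fold changes of Ctsc (0.39), Ctsz (0.36) and Ctsb (0.28) had adjusted p of 0.297 to 0.455 by edgeR. With one library left out, Ctsz ran from 0.18 (WT naive replicate 1) to 0.60 (WT naive replicate 3) and Ctsb from 0.16 (WT ligated replicate 3) to 0.38 (WT ligated replicate 1), and Ctsz was at 0.63 without both libraries that stand apart (that rich in salivary gland markers and that with adipocyte markers). Both WT calls rested on single libraries. Without WT ligated replicate 3, WT naive replicate 1 or WT naive replicate 2, neither gene was called (log2 fold changes of Lgmn 0.82, 0.84 and 0.90, adjusted p 0.0517, 0.0580 and 0.0807, and of Ctss 0.90, 1.27 and 1.09, adjusted p 0.107, 0.0525 and 0.127), and without WT ligated replicate 2 or WT naive replicate 3 Ctss was not called (1.11 and 0.98, adjusted p 0.0826 and 0.0503).

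In the libraries labelled CybbKO, the same comparison gave 5 calls. Ctss rose 3.85-fold, Lgmn 2.07-fold, Ctsz 1.91-fold, Ctsc 1.70-fold and Ctsb 1.38-fold, and no member was called lower. Among all tested genes, 13% were called in this comparison, 9.95% as higher and 3.04% as lower, and the 457 lower calls became 265 when libraries were scaled by their totals alone. DESeq2 called 18.4% of genes and 5 members, and 27.7% of genes and 5 members had an unadjusted p under 0.05 by edgeR, none of them lower. The median log2 fold change of the 10 genes was 0.42, against -0.03 for all tested genes.

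Ctss measured 17.3, 18.6 and 20.3 CPM in the naive and 74.4, 53.7 and 87.9 CPM in the ligated libraries labelled CybbKO. The ligated libraries all lay well above the naive ones. The log2 fold change was 1.94 (SE 0.23, 95% interval 1.43 to 2.46, edgeR adjusted p = 0.00185), which ranked 23 of 15046 genes by p.

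Lgmn measured 27.4, 29.4 and 36.9 CPM in the naive and 69.8, 56.7 and 66.9 CPM in the ligated libraries. The groups were far apart. The log2 fold change was 1.05 (SE 0.15, 95% interval 0.71 to 1.38, edgeR adjusted p = 0.00240).

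Ctsz encodes cathepsin Z, also named X, a carboxypeptidase, and measured 25.1, 16.3 and 27.7 CPM in the naive and 49.7, 35.9 and 46.6 CPM in the ligated libraries. Its log2 fold change was 0.94 (SE 0.25, edgeR adjusted p = 0.0290). Ctsc encodes cathepsin C, the dipeptidyl peptidase that activates the serine proteases of neutrophil and mast cell granules. It measured 109.7, 127 and 107 CPM in the naive libraries and ranged widely among the ligated ones, at 191, 127 and 267 CPM, with replicate 2 close to the highest naive library. Its log2 fold change was 0.77 (SE 0.22, edgeR adjusted p = 0.0404).

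Ctsb encodes cathepsin B, which acts both as an endopeptidase and as a dipeptidyl carboxypeptidase. It was the most abundant of the genes that rose, at 489.8, 468 and 495 CPM in the naive and 717, 586 and 706 CPM in the ligated libraries. The groups did not overlap, although the log2 fold change was small, at 0.47 (SE 0.14, edgeR adjusted p = 0.0470). Ctsh encodes cathepsin H, an aminopeptidase, and its groups did not overlap either, at 58.4 to 66.8 CPM in naive and 72.4 to 90.6 CPM in ligated libraries, but the gene did not pass the test. With Ctsh, 6 of 10 genes had groups that did not overlap and were higher, against 18.5% of all tested genes.

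Ctss and Lgmn kept their calls when any 1 library was left out. The count of all genes called, 1954 with all 12 libraries, was 837 and 854 without CybbKO ligated replicate 1 and 3. It was 1178, 1113 and 1148 without CybbKO naive replicate 1, 2 and 3. The other 3 member calls could be lost in these fits. Without CybbKO ligated replicate 1 or 3 or CybbKO naive replicate 1 or 2 the number of members called was 2. Without CybbKO naive replicate 3 it was 3 (Ctss, Ctsz and Lgmn). With 1 library left out the log2 fold changes stayed at 0.41 to 0.55 for Ctsb and 0.74 to 1.09 for Ctsz, with adjusted p up to 0.174 and 0.112 by edgeR. For Ctsc they were 0.47 to 1.00, the lowest without CybbKO ligated replicate 3 (adjusted p = 0.179).

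**Figure D2:**
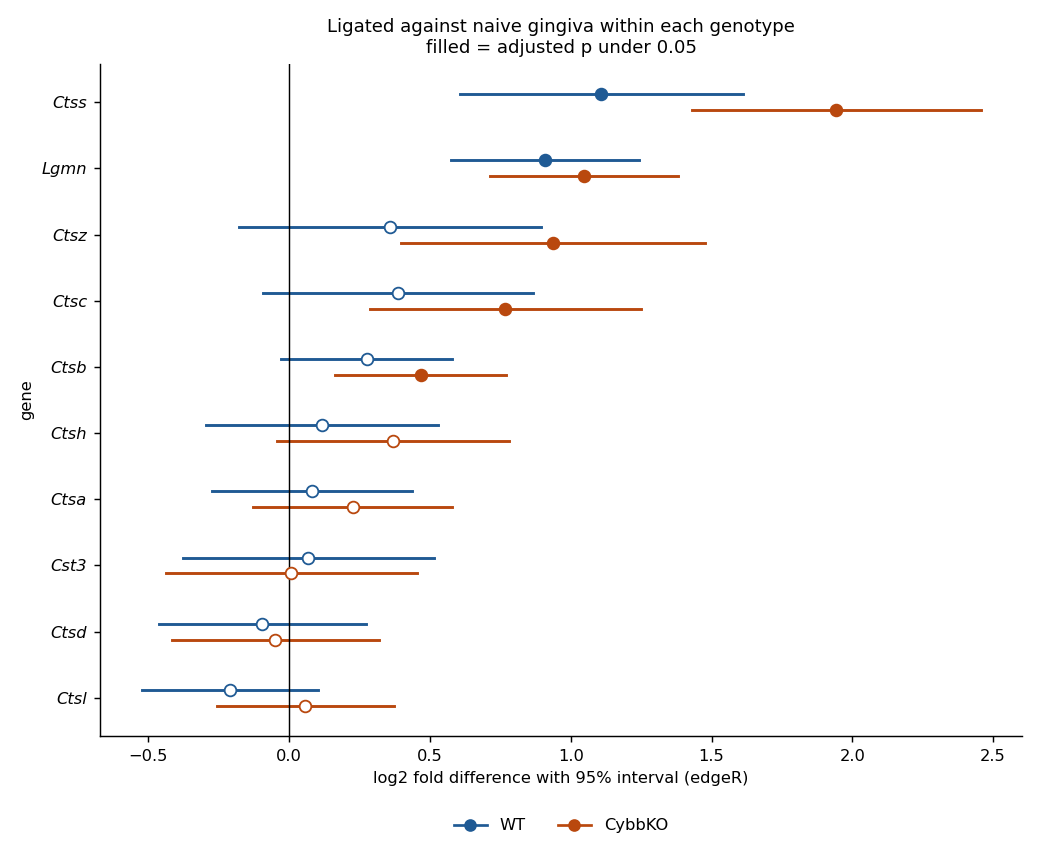
Log2 fold difference between ligated and naive gingiva for each gene (x axis) with its 95% interval, for WT (blue) and for the libraries labelled CybbKO (orange). Filled points mark adjusted p under 0.05, and Ctss and Lgmn are filled in both genotypes while Ctsz, Ctsc and Ctsb are filled in the CybbKO comparison.

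With the genotypes averaged, the 5 genes Ctss, Lgmn, Ctsz, Ctsc and Ctsb rose. Of all tested genes, 24.4% were called, 14.7% as higher and 9.66% as lower, which is the background for these 5 of 10. Scaled by library totals alone, the 2215 higher and 1453 lower calls became 2628 and 726. Log2 fold changes were 1.53 (SE 0.16, edgeR adjusted p = 0.000247) for Ctss, 0.98 (SE 0.11, adjusted p = 0.000251) for Lgmn, 0.65 for Ctsz, 0.58 for Ctsc and 0.37 for Ctsb, with adjusted p of 0.0181 to 0.0196 for the last 3. An exact two-sided permutation test over libraries, permuting within each genotype, gave p = 0.005, the smallest it can give, for Ctss, Lgmn and Ctsc, 0.01 for Ctsb and 0.015 for Ctsz. Without CybbKO ligated replicate 1, 3 of the 5 were called, with Ctsz (0.60) and Ctsb (0.35) both at an adjusted p of 0.0516 by edgeR, and without WT ligated replicate 3 Ctsz was not called (0.57, adjusted p = 0.0511).

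The other 5 genes did not pass the test. The log2 fold changes were 0.24 (95% interval -0.05 to 0.53) for Ctsh, 0.15 (-0.10 to 0.40) for Ctsa, 0.04 (-0.28 to 0.35) for Cst3, -0.07 (-0.33 to 0.19) for Ctsd and -0.08 (-0.30 to 0.15) for Ctsl. When libraries were scaled by their totals alone, which moved the median of all genes in this comparison from -0.03 to 0.065, Ctsd and Ctsl were at 0.02 and 0.03.

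Ctsd encodes cathepsin D, the main aspartic protease of lysosomes. It ranged from 529.7 to 733 CPM in WT naive, 569.9 to 635 in WT ligated, 532 to 740.5 in CybbKO naive and 588 to 751 in CybbKO ligated libraries. The 4 ranges overlapped throughout. Ctsl encodes cathepsin L, which in keratinocytes also takes part in epidermal turnover, and ranged from 265 to 381 CPM in WT naive, 256 to 296 in WT ligated, 270.0 to 334 in CybbKO naive and 286 to 319.5 in CybbKO ligated libraries.

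Ctsa encodes cathepsin A, which protects beta-galactosidase and neuraminidase 1 in a lysosomal complex. It measured 75.4 to 113 CPM in WT naive and 86.3 to 104 CPM in WT ligated libraries, and 80.8 to 112 CPM in CybbKO naive and 106 to 121 CPM in CybbKO ligated libraries. Cst3, the inhibitor, measured 286, 279 and 391 CPM in WT naive and 346, 304 and 353 CPM in WT ligated libraries. In the libraries labelled CybbKO it was 356, 286 and 321 CPM in naive and 293, 433 and 243 CPM in ligated gingiva. The ligated CybbKO group held both the highest and the lowest Cst3 value of all 12 libraries, with its replicate 2 the highest.

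The protease makeup of the tissue is described with CPM per kilobase of exon. The 9 proteases summed to 445 to 554 in WT naive, 520 to 566 in WT ligated, 437 to 547 in CybbKO naive and 610 to 638 in CybbKO ligated libraries. Ctsd took 50.6% to 56.2% of this sum in WT naive and 42.8% to 52.0% in WT ligated, and 51.8% to 58.2% and 40.3% to 52.1% in CybbKO naive and ligated libraries. Its share depended on the length used. Per kilobase of the principal transcript it was 37.5% to 44.8% in WT naive and 33.0% to 41.1% in WT ligated libraries. In the CybbKO groups it was then 39.0% to 46.4% in naive and 31.0% to 41.8% in ligated libraries. Ctss took 2.28% to 4.25% in WT naive and 4.74% to 7.57% in WT ligated libraries, and 2.33% to 3.13% and 6.45% to 10.1% in the CybbKO groups. The share of Ctss was thus higher in every ligated library than in any naive one.

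The ratio of Cst3 to the sum of the 6 cysteine cathepsins, both per kilobase of exon, was 1.17, 1.09 and 1.51 in WT naive and 1.32, 1.00 and 0.997 in WT ligated libraries. In the libraries labelled CybbKO it was 1.43, 1.25 and 1.33 in naive gingiva, and 0.752, 1.40 and 0.584 in ligated gingiva. Replicates 1 and 3 of the ligated CybbKO group had the lowest ratios of the 12 libraries, while replicate 2, the one with adipocyte markers, lay within the naive range. The ratio is one of transcript levels. It was not tested, and it gives neither protein amounts nor enzyme activity.

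**Figure D3:**
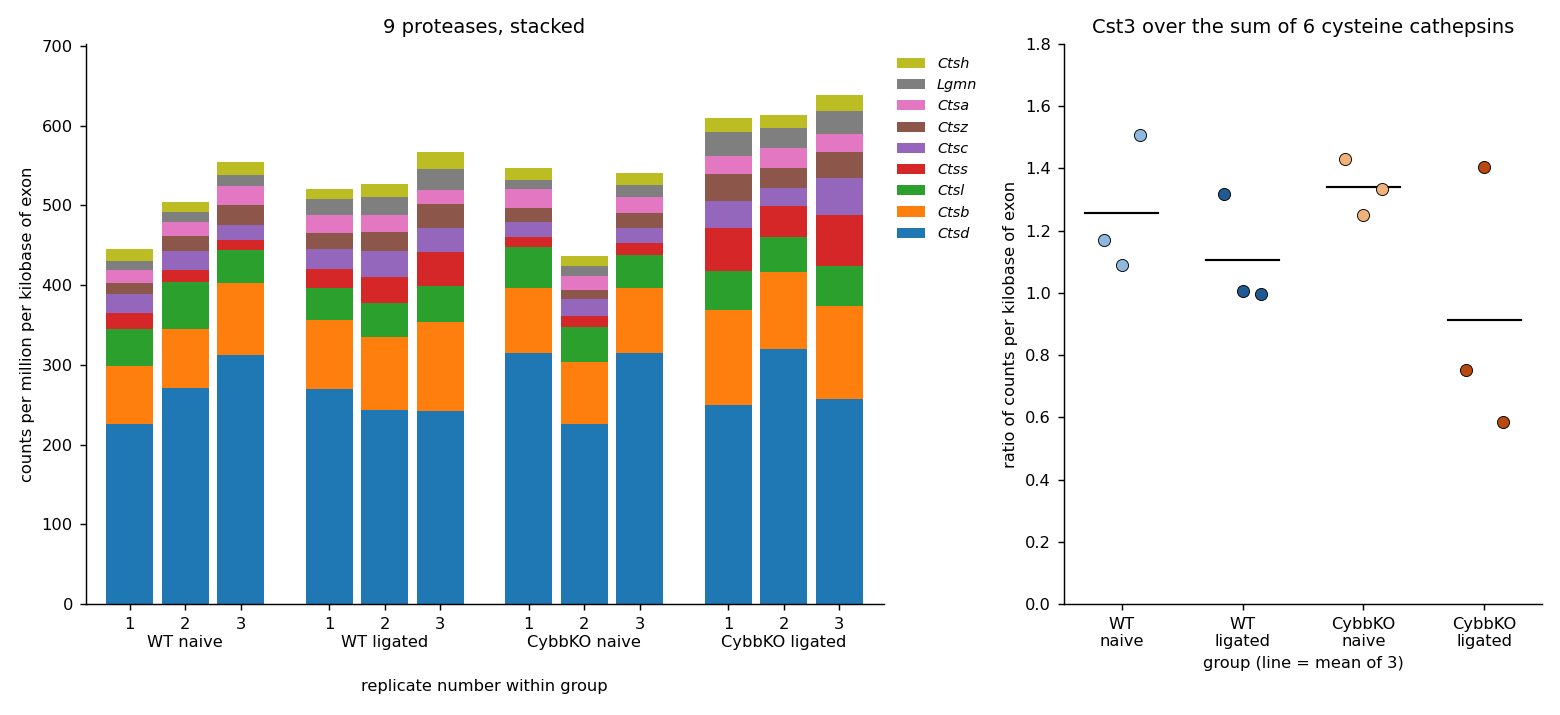
Left, CPM per kilobase of exon of the 9 proteases stacked for each of the 12 libraries (replicate number on the x axis); right, the ratio of Cst3 to the summed 6 cysteine cathepsins on the same scale, 1 point per library and a line at the group mean. Ctsd forms the largest block in each library, the Ctss block is larger in ligated libraries, and the ratio is 0.752 and 0.584 in 2 of the ligated CybbKO libraries.

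The comparison of genotypes asked whether levels differed between libraries labelled CybbKO and WT in the same tissue state. No member was called in ligated gingiva, in naive gingiva or with both averaged, by edgeR or by DESeq2. By edgeR's unadjusted p under 0.05, 1 member (Ctss) passed in ligated gingiva, where 3.34% of genes did, and 0 passed in naive gingiva (2.03% of genes) or with both averaged (2.46%). These shares moved when single libraries were left out. The 503 genes behind the share in ligated gingiva became 244 when WT ligated replicate 1 was left out and 956 when CybbKO ligated replicate 2 was, and the 306 in naive gingiva became 217 when CybbKO naive replicate 3 was left out and 806 when WT naive replicate 1 was. Without both libraries that stand apart they were 1226 and 890. Genome-wide, edgeR called 1 gene in each of these comparisons, Cybb itself, which is 0.00665% of those tested. DESeq2 called 14, 2 and 9 genes (0.0931%, 0.0133% and 0.0599%), none of them a member.

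In ligated gingiva Ctss was 1.57-fold higher in the libraries labelled CybbKO. The log2 difference was 0.66 (SE 0.23, 95% interval 0.16 to 1.15, edgeR unadjusted p = 0.0138, adjusted p = 1.00). The highest WT ligated library, at 58.2 CPM, lay above the lowest CybbKO ligated library, at 53.7 CPM, so the groups overlapped. For Lgmn the log2 difference was 0.27 (95% interval -0.06 to 0.60), for Ctsz 0.29 (-0.24 to 0.83), for Ctsb 0.20 (-0.10 to 0.50) and for Cst3 -0.05 (-0.50 to 0.40). Leaving out WT ligated replicate 1 lowered the values of Lgmn, Ctsz and Ctsb to 0.16, 0.15 and 0.11, and leaving out WT ligated replicate 3 raised them to 0.36, 0.44 and 0.31. Ctsa was the 1 gene whose ligated groups did not overlap, at 86.3 to 104 CPM in WT and 106 to 121 CPM in the libraries labelled CybbKO, which held, in that direction, for 5% of all tested genes.

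In naive gingiva the log2 difference was -0.18 (95% interval -0.68 to 0.32) for Ctss, 0.13 (-0.20 to 0.46) for Lgmn and -0.29 (-0.83 to 0.25) for Ctsz. These values also moved with single libraries. Ctss was at -0.31 without WT naive replicate 3 and -0.015 without WT naive replicate 1, while Ctsz was at -0.050 and -0.47 in the same fits, and at -0.041 without both libraries that stand apart. Lgmn was at -0.0085 without CybbKO naive replicate 3 and at 0.21 without CybbKO naive replicate 1. No member had groups that did not overlap, against 5.11% of all tested genes in either direction. With both tissue states averaged, Ctss differed by 0.24 (95% interval -0.11 to 0.59), Lgmn by 0.20 (-0.04 to 0.43) and Cst3 by -0.02 (-0.33 to 0.30). The lowest values with one library left out were 0.14 for Ctss, without WT ligated replicate 1, and 0.13 for Lgmn, without CybbKO naive replicate 3.

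Whether the ligature response differed between genotypes was tested as an interaction, over the same 12 libraries as the comparisons above. Neither edgeR nor DESeq2 called any gene (0%), and 342 genes had an unadjusted p under 0.05 by edgeR (2.27% of those tested), including 1 member. That count of genes was 177 when WT ligated replicate 1 was left out, 986 when CybbKO ligated replicate 2 was, and 1450 without both libraries that stand apart. The member was Ctss, whose ligature difference was larger by 0.83 on the log2 scale in the libraries labelled CybbKO (SE 0.32, 95% interval 0.13 to 1.54, edgeR unadjusted p = 0.0239, adjusted p = 1.00). Values for the other risers were 0.58 (95% interval -0.18 to 1.34) for Ctsz, 0.38 (-0.30 to 1.06) for Ctsc, 0.19 (-0.24 to 0.62) for Ctsb and 0.14 (-0.33 to 0.60) for Lgmn, and Cst3 was at -0.06 (-0.69 to 0.57). These values depended on single libraries. Ctsc ranged from 0.09 without CybbKO ligated replicate 3 to 0.61 without CybbKO ligated replicate 2, and Cst3 from 0.11 to -0.33 without the same libraries. Ctsz ranged from 0.34 without WT naive replicate 3 to 0.76 without WT naive replicate 1, Ctsb from 0.08 without WT naive replicate 3 to 0.30 without WT ligated replicate 3, and Lgmn from 0.03 with WT ligated replicate 1 left out to 0.27 when CybbKO naive replicate 3 was. More members were called in the CybbKO comparison than in WT, but for no member did the test of the difference itself pass after adjustment.

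**Figure D4:**
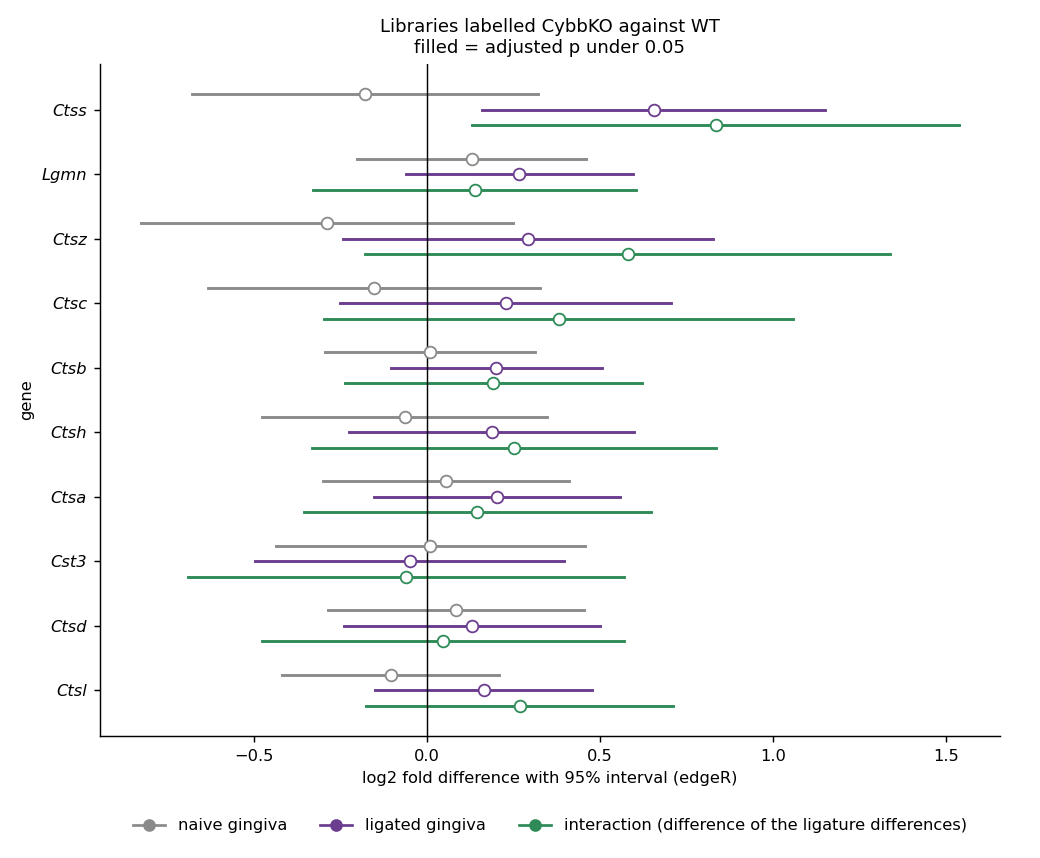
Log2 fold difference between libraries labelled CybbKO and WT for each gene (x axis) with its 95% interval, in naive gingiva (grey), in ligated gingiva (purple) and as the interaction (green), where above 0 means a larger ligature difference in CybbKO. No point is filled, since no adjusted p was under 0.05, and Ctss in ligated gingiva and its interaction are the intervals that lie above 0.

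Markers of other cell types moved with the ligature, beside the gene values above. The 14 macrophage and monocyte markers summed to 149 to 186 CPM in WT naive, 216 to 362 in WT ligated, 128 to 139 in CybbKO naive and 314 to 503 in CybbKO ligated libraries. All 14 passed the filter on low counts. In WT edgeR called 4 of them higher (Adgre1, Csf1r, Cx3cr1 and Ms4a7) and DESeq2 7, with 12 positive and 11 under 0.05 before adjustment, and in the libraries labelled CybbKO both tools called 13. The interaction was positive for all 14, but neither tool called any, with 9 under 0.05 before adjustment by edgeR. Between genotypes in ligated gingiva (CybbKO minus WT) all 14 differences were positive, again with none called by either tool and 6 under 0.05 before adjustment. The 10 neutrophil markers summed to 464 to 920.2 CPM in WT naive, 1597 to 3941 in WT ligated, 899.8 to 1019.5 in CybbKO naive and 2966 to 11725 in CybbKO ligated libraries. Between genotypes in ligated gingiva 9 of the 10 differences were positive, with a median of 1.31 on the log2 scale against 0.54 for the macrophage and monocyte markers, but neither tool called any, and 6 were under 0.05 before adjustment by edgeR. Fibroblast markers summed to 1405 to 2956 CPM in naive and 3906 to 10471 CPM in ligated libraries. Endothelial markers summed to 117 to 148 CPM in naive and 211 to 335 CPM in ligated libraries, and osteoclast markers, a list that includes Ctsk, to 60.4 to 115 CPM and 141 to 477 CPM. The summed level of the 7 dendritic cell markers overlapped, at 20.7 to 34.4 CPM in naive and 22.4 to 36.7 CPM in ligated libraries, although in the libraries labelled CybbKO edgeR called Flt3 (1.13), Itgax (1.05) and Zbtb46 (0.76) higher and Cd207 (-2.01) lower. In WT edgeR called none of the 7, with 2 under 0.05 before adjustment, and DESeq2 called 2. Within the ligated groups the libraries with the lowest Ctss, WT replicate 1 and CybbKO replicate 2, were also the lowest in the macrophage, neutrophil, fibroblast, endothelial and osteoclast sums alike, and the highest in the keratinocyte sum, at 89737 and 98983 CPM. The part of these cell types in the rise of Ctss, Lgmn, Ctsz, Ctsc and Ctsb was not tested.

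Without the library rich in salivary gland markers and the library with adipocyte markers, the same members were called as with all 12, namely Ctss and Lgmn in WT and Ctss, Lgmn, Ctsz, Ctsc and Ctsb in the libraries labelled CybbKO. The log2 fold changes of Ctss were then 1.01 in WT and 2.15 in CybbKO, and those of Lgmn 1.02 and 1.16. The difference between genotypes in ligated gingiva moved from -0.05 to -0.31 for Cst3, and the interaction moved from -0.06 to -0.50 for Cst3 and from 0.38 to 0.71 for Ctsc, none of them called. The count of all genes called, by contrast, moved from 481 to 1516 in WT and from 1954 to 3711 in CybbKO.

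Genes whose profile over the 12 libraries was closest to each member were found by the root mean square difference of mean-centred log2 CPM. For Ctss these included Ms4a6c and Lyn, at 0.14 and 0.15, and for Lgmn they were Robo4, Lmo2 and Mmrn2, at 0.11 to 0.13. For Ctsz they were Ccdc102a, Lgals1 and Ripk3, for Ctsc Calu, Slco1a5 and Tpm4, for Ctsb Ehd4, Cds2 and Slc39a1, and for Ctsh Lxn, Fkbp1a and Rgs10, all at 0.07 to 0.13. For Ctsa they were Man2b1, a lysosomal mannosidase, Ncstn and Gtpbp2, at 0.07 to 0.08. For Ctsd they were Ptpa, Jpt1 and Mapkapk2, for Ctsl Tmprss11d, Minpp1 and Slc22a21, and for Cst3 Ndufaf8, Oxa1l and Faap20, at 0.06 to 0.10. The SD of log2 CPM was only 0.19 for Ctsd, 0.16 for Ctsl and 0.23 for Cst3, against 0.87 for Ctss. A smaller difference therefore need not mean a closer match relative to the variation of the member. The members were not each other's nearest. Lgmn was the closest member to Ctss, at 0.39, with 281 other genes nearer, and Ctsh was the closest to Ctsb, at 0.15, with 142 nearer.

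Other genes of the lysosome gave a mixed picture. Of 5 other cathepsins tested, Ctsk was called higher in WT, and Ctsk and Ctso in CybbKO, by edgeR. Ctsk encodes cathepsin K, the collagen-degrading protease of osteoclasts, and measured 31.2, 37.6 and 36 CPM in WT naive and 84.9, 110.2 and 262 CPM in WT ligated libraries. In the libraries labelled CybbKO it measured 29.7, 23 and 24.3 CPM in naive and 247, 65.6 and 214 CPM in ligated gingiva. Its log2 fold changes were 2.12 (SE 0.47, edgeR adjusted p = 0.0375) and 2.77 (SE 0.48, adjusted p = 0.00464), beside 1.11 and 1.94 for Ctss. Ctso rose by 0.57 in CybbKO (adjusted p = 0.0268), and Ctsf, the other abundant gene of the list, was at -0.31 and -0.12 in the 2 genotypes.

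Of 14 other cystatins, stefins and cathepsin inhibitors tested, edgeR called none in WT and DESeq2 called 4, while 7 passed at edgeR's unadjusted 0.05. In CybbKO 4 were called higher, namely Cstb and the low-abundance stefin genes Stfa1, Stfa2l1 and Gm5483. Cstb, which encodes the intracellular inhibitor stefin B, rose from a mean of 100.1 to 145 CPM (log2 fold change 0.53, adjusted p = 0.0278). Stfa1 was at a mean of 0.0695 and 0.862 CPM, and the stefin genes are near-identical copies, so reads may be divided among them. The most abundant genes of the list, Serpinb3a, Csta1 and Serpinb6a, were at -0.11, 0.26 and 0.36 in CybbKO and did not pass the test.

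Of 30 lysosomal glycosidases, lipases and other hydrolases, 1 was called higher in WT and 6 in CybbKO, by edgeR, with none lower (6 and 14 genes at an unadjusted p under 0.05 in either direction, 2 and 10 called by DESeq2). Manba, a beta-mannosidase, rose in both, by 0.66 (adjusted p = 0.0497) and 0.86 (adjusted p = 0.00626). Gusb, the beta-glucuronidase, rose by 1.09 in CybbKO (adjusted p = 0.00680), with Acp2, Arsa and Gla at 0.57 to 0.95. Ids and Tpp1, among the most abundant of the list, were at 0.04 to 0.30 in the 2 genotypes and did not pass. The list medians were 0.16 in WT and 0.34 in CybbKO, against -0.03 for all tested genes in both.

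Of 14 lysosomal membrane and lipid proteins, none was called in WT by edgeR or DESeq2 (2 at an unadjusted p under 0.05), and Cd68, Cd63 and Laptm5 were called higher in CybbKO, at 0.97, 0.76 and 1.24. Cd68 and Laptm5 are known mainly from leukocytes. The abundant Lamp1, Laptm4a and Psap, the last of which encodes the saposin precursor, were at -0.05, 0.10 and 0.18 in CybbKO. Of 18 subunits of the vacuolar ATPase, the pump that acidifies lysosomes, none was called in WT by edgeR (4 at an unadjusted p under 0.05, 1 by DESeq2), and in CybbKO Atp6v0d2, a subunit of osteoclasts and macrophages, was called higher at 5.32 and Atp6v0d1 lower at -0.39. The abundant subunits Atp6v1b2, Atp6ap1 and Atp6v1e1 were at -0.05, 0.09 and -0.20 and did not pass.

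Of 13 genes that sort enzymes to lysosomes, none was called in WT (2 at an unadjusted p under 0.05, none by DESeq2) and Gga2 was called lower in CybbKO, at -0.48, while the abundant M6pr, Scarb2 and Lrp1 were at 0.11, 0.25 and 0.76 and did not pass. Of 6 factors of lysosomal biogenesis, none was called in WT (2 at an unadjusted p under 0.05, none by DESeq2) and Tfec was called higher in CybbKO, at 3.23 from a mean of 0.108 CPM. With the genotypes averaged, Tfeb, which encodes the master regulator of lysosomal genes, was called lower, at -0.98 (adjusted p = 0.00994), and Mlxip higher, at 0.28 (adjusted p = 0.0225), while Tfe3 and Zkscan3 were at -0.15 and 0.10.

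Lists of genes from pathways in which these proteases act were also counted. Of 10 genes of class II presentation, in which cathepsin S trims the invariant chain, H2-Ob was called higher in WT, at 1.06, and H2-Ob, H2-Aa and Ciita in CybbKO, at 0.84, 0.70 and 1.06. The abundant Cd74, which encodes the invariant chain, and H2-Eb1 were at 0.41 and 0.72 in CybbKO and did not pass. The endosomal receptors Tlr3, Tlr7, Tlr8 and Tlr9, cleaved by cathepsins or legumain, and their carrier Unc93b1 were all called higher in CybbKO, at 0.99 to 1.93, while in WT, at 0.56 to 0.82, none of the 5 was called by edgeR or DESeq2 and 1 had an unadjusted p under 0.05. In the interaction none of the 5 was called and 1 had an unadjusted p under 0.05. Of 10 granule serine proteases activated by cathepsin C, 5 passed the filter and none was called in either genotype by edgeR (2 and 1 at an unadjusted p under 0.05, 1 and none by DESeq2). The list summed to 3.21 to 12.4 CPM over all libraries, with Mcpt4, Cma1 and Tpsb2 of mast cells as its most abundant genes.

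**Figure D5:**
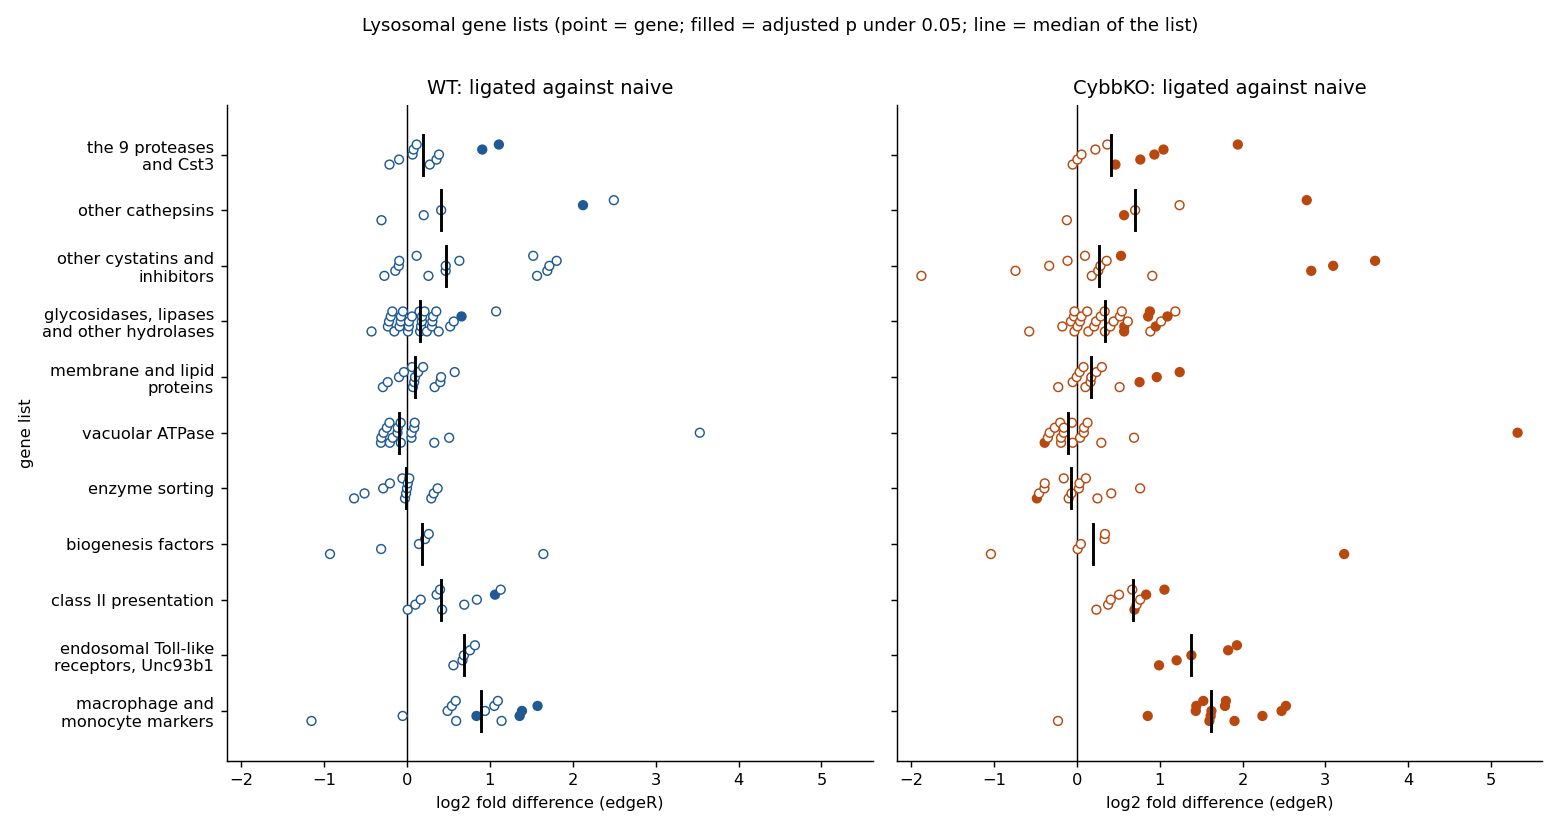
Log2 fold difference between ligated and naive gingiva (x axis) of each tested gene, for the 9 proteases with Cst3, for other lysosome-related lists and for the macrophage and monocyte markers, for WT (left) and libraries labelled CybbKO (right). Filled points have adjusted p under 0.05 and black lines are list medians, which in CybbKO run from -0.11 for the vacuolar ATPase to 1.38 for the endosomal receptors and 1.62 for the macrophage and monocyte markers.

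The genes are spread over the mouse genome (GRCm38), with Cst3, Ctsa and Ctsz on chromosome 2, Ctsc and Ctsd on chromosome 7, and the others each alone on chromosomes 3 (Ctss), 9 (Ctsh), 12 (Lgmn), 13 (Ctsl) and 14 (Ctsb). Ctss spans 95526786 to 95556403 on the plus strand of chromosome 3, in 8 exon blocks, and Lgmn spans 102394084 to 102439813 on the minus strand of chromosome 12, in 14. Some exons overlap those of other genes. Ctsd shares 808 exonic bases on its own strand with Gm49369, whose mean was at most 0.00925 CPM in any group, and Ctsl shares 395 with Gm49230. On the opposite strand Ctsl shares 1742 exonic bases with Gm47123, which was not analysed here, Ctsb shares 774 exonic bases with Fdft1, and Ctsa 495 with Pltp and 324 with Neurl2. The library kit keeps strand, but strand-specific counting is stated for featureCounts only and which tool made the table was not resolved, so reads of genes that overlap on opposite strands may not be told apart.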

How the data were processed

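RNA-seq libraries of gingiva from 12 samples, 3 in each of 4 groups, were compared. The authors deposited raw counts per gene (Ensembl identifiers) for each library. Per the labels and the study's methods, stranded poly(A) libraries were aligned to GRCm38 (mm10) with STAR. The methods name featureCounts with strand-specific counting, while the submitters' processing notes list FastQC 0.10.1 and HTSeq 0.10.0, and which of the counting tools made the table was not resolved. Of 21965 genes, 21939 were matched to GENCODE M21 for symbols and positions. Depth was 27958819 to 42613423 counts.

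Counts were tested with edgeR 4.0.16 in R 4.3.3 (quasi-likelihood F test, TMM scaling, filterByExpr with a minimum count of 10), in one fit of 12 libraries with a mean per group, which left 15046 genes. P-values were adjusted over these by the Benjamini-Hochberg method and genes were called at an adjusted p under 0.05. The study's methods name DESeq2, and DESeq2 1.42.0 was run as an alternative, with the other alternatives given in the closing section. All log2 fold changes, standard errors and intervals are edgeR's, and CPM values are TMM-scaled. Exact permutation tests over libraries were two-sided, and with 3 against 3 cannot give a p under 0.1. In simulated counts for the WT ligature comparison (200 changed genes of 15000), edgeR recovered 47.7% of 2-fold and 86.3% of 4-fold changes, and 5.61% of its calls were false.

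The 10 members and all gene lists were chosen with earlier results of these data known. Every member is named. Of each other list, called genes and the 3 most abundant are named, with the 3 genes nearest in profile to each member, except for a few genes that are not reported here. The sources used here do not say that libraries of a group came from separate mice or pools, so p-values measure the spread between these samples, which may be technical. Same-numbered libraries did not pair: correlations of their deviations from group means were -0.20 to 0.26 in 18 pairs, against -0.31 to 0.40 in 36 other pairs.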

Additional observations from a re-analysis of the deposited data

How the results depend on the processing

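Of 650 alternative values of single members, 600 kept their direction and their side of the threshold, 32 kept the direction but lost the call, and 18 changed sign. The cause was not tested. Many of the 600 belong to members that were not called in the first place, which could not lose a call. The call was lost in 8 of 15 settings for Ctsb, 7 for Ctsc and 4 for Ctsz in CybbKO. In WT it was lost in 7 of 15 for Ctss and 3 for Lgmn. In WT, where 481 genes and 2 members were called with the ligature, DESeq2 called 1375 genes, a replicate block 271, and leaving out both libraries that stand apart (chosen after seeing the data) 1516. Members called were 1 (Lgmn) with the replicate block and 1 with only the libraries compared. Leaving out one WT library gave 27 (without WT naive replicate 2) to 737 genes and 0 to 2 members. In CybbKO, where 1954 genes and 5 members were called, leaving out both libraries gave 3711 genes, using only the libraries compared 3 members, and leaving out one library 837 to 2949 genes and 2 to 5 members. With genotypes averaged, leaving out one library gave 3 to 5 members. Between genotypes, where edgeR called 1 gene, DESeq2 called 14 in ligated gingiva, 2 in naive gingiva and 9 with both averaged. With only the libraries compared 0 were called in ligated gingiva, and leaving out one library gave 0 to 2. For the interaction it gave 0 to 1.

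The replicate block also took Ctsc below the call in CybbKO (adjusted p = 0.0794, edgeR) and Ctss in WT (0.0559), and changed no other member's call. Scaling by library totals alone turned Ctsd to 0.023 and Ctsl to 0.026 with genotypes averaged. Leaving out one library moved Cst3 from -0.10 to 0.12 with genotypes averaged, -0.32 to 0.12 between genotypes in ligated gingiva, -0.15 to 0.067 with both averaged and -0.33 to 0.11 in the interaction, and Lgmn between naive genotypes from -0.0085 to 0.21. Ctsb in CybbKO also lost its call with DESeq2 size factors (adjusted p = 0.0554) and without the filter on low counts (0.0585), both by edgeR. Where one library was left out, the remaining pair shared the spread of the other groups. The lowest member count, 470, leaves counting error small beside the spread between libraries.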
